A study of Homo sapiens with 6 samples.

Results

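The enzymes of phase I and phase II drug metabolism were followed in RNA sequencing libraries labelled Hep3B, a human liver cancer line. Members were the protein-coding genes of the CYP1 to CYP4, UGT1 and UGT2, GST (classes A, M, P, T, O, Z and K), and SULT1 and SULT2 families whose symbol matched the family pattern in the deposited table. There were 43 such genes among 27009, namely 23 CYP, 6 UGT, 9 GST and 5 SULT genes. All 6 libraries came from cells in which the endogenous PD-L1 gene (CD274) had been knocked out. The 3 vector libraries carried the empty vector, and the 3 libraries labelled nPD-L1 carried a mutated PD-L1 that is held in the nucleus, delivered by lentivirus under a CMV promoter as stable cells. The comparison asked which of these enzymes were expressed and which differed between the groups. The labels do not say that the 3 libraries of a group came from separate cultures, so p values measure the spread between libraries, which may be technical.

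Phase I enzymes, mainly the cytochrome P450 (CYP) monooxygenases of the endoplasmic reticulum, introduce or expose a reactive group on drugs, steroids, fatty acids and pollutants. Phase II enzymes then attach a polar group: glutathione by glutathione S-transferases (GST), glucuronic acid by UDP-glucuronosyltransferases (UGT) and sulfate by sulfotransferases (SULT). Adult hepatocytes hold most of this capacity, and the nuclear receptors, AHR and NRF2 are the best known controllers of these genes.

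The deposited values, here called scaled reads, were gene-level reads after division by a per-library size factor, and they summed to between 18082164 and 19682128 per library. CD274 was examined first. It had 28.3, 38.4 and 47.8 scaled reads with the vector and 16.8, 19.2 and 30.9 with the nPD-L1 label. The groups overlapped, with a log2 fold change of -0.76 (SE 0.34, adjusted p = 0.338, limma) and p = 0.2 by an exact two-sided permutation test, which cannot go below 0.1 with 3 against 3. CD274 thus did not separate the groups upward under the nPD-L1 label, and directions below rest on the labels alone. The liver label was checked against 10 hepatocyte markers with a row. ALB, APOB, APOA1, TTR and TF lay between 0 and 2.89 scaled reads in every library, and the sum of the list, mostly FGB, was 1275 to 1954 with the vector and 1303 to 1455 with the nPD-L1 label. These defining hepatocyte markers were thus at or below what 3 reads are worth, while a list of 3 cholangiocyte markers, mostly KRT7, summed to 25146 to 37886. On these markers the data go against the liver label. The identity of the line was not tested, and levels given below are those of the libraries as labelled. The endothelial and leukocyte lists summed to at most 6.06 scaled reads. The fibroblast list summed to 170.4 to 245 against 586 to 655, with COL1A1 the 1 of its 4 genes that passed the test, and its part in the differences described here was not tested.

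23 of the 43 members reached 10 scaled reads in at least 3 libraries and were tested: 11 CYP, 8 GST, 3 SULT and 1 UGT. None of the 23 (0) passed an adjusted p of 0.05 in limma, where 4.96% of all 15076 genes tested did, 4.04% with higher and 0.922% with lower values under the nPD-L1 label, and 2.48% with a 2-fold change as well. edgeR and DESeq2 on 4 libraries called 0 members, where they called 283 and 418 of the 15076 genes. These fits had fewer libraries, so a count of 0 there says little. By an unadjusted p under 0.05, 2 members passed (CYP2S1 and CYP2U1), both with higher values under the nPD-L1 label, against 14.2% of all genes, 9.53% higher and 4.71% lower. These were also the 2 members whose groups did not overlap, against 20.6% of all genes, 12% higher and 8.54% lower. 11 log2 fold changes lay above 0 and 12 below, with a median of -0.01, and that of all genes tested was -0.02. Missing the threshold does not show that levels were alike, so the intervals matter. The 95% interval of the log2 fold change lay within 1 of 0, that is, within 2-fold, for 14 members: 8 of 8 GST, 5 of 11 CYP, 1 of 1 UGT and 0 of 3 SULT genes. It lay within 2-fold for 11742 of the 15076 genes. In bulk RNA, fewer cells expressing a gene and less RNA per cell cannot be told apart.

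**Figure D1:**
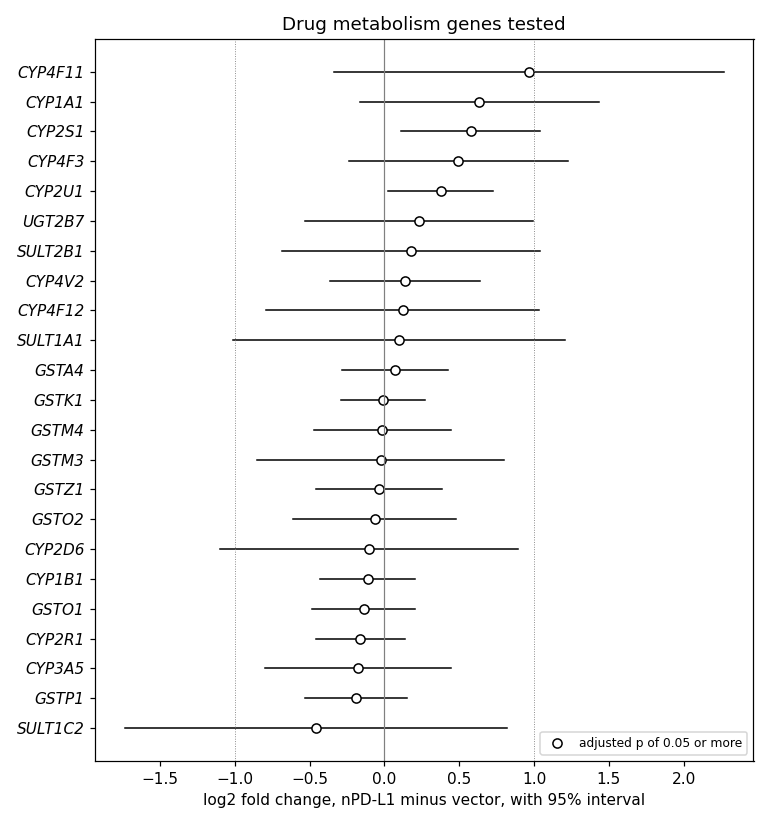
The log2 fold change (nPD-L1 minus vector, horizontal axis, on the log2(value + 1) scale) of each of the 23 tested members with its 95% interval from limma on 3 against 3 libraries; dotted lines mark 2-fold. CYP2S1 and CYP2U1 are the members whose interval leaves 0 out, and none had an adjusted p under 0.05.

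The sequences just upstream of the RefSeq start of 4 members are shown because these genes carry the results that follow. These genes are the best known AHR target among the CYP genes, the 2 genes that passed the unadjusted threshold, and the most abundant member. The gene coordinates given below begin before the RefSeq start, so part of each sequence lies inside them. Each is the 250 bases before the RefSeq start on GRCh38.p14, written 5′ to 3′ on the gene's strand: chr15:74725529-74725778 on the - strand for CYP1A1, chr19:41192969-41193218 on the + strand for CYP2S1, chr4:107931299-107931548 on the + strand for CYP2U1 and chr11:67583562-67583811 on the + strand for GSTP1. Capitals mark matches on either strand to any of 5 motifs: the AHR core GCGTG, the AP-1 site TGANTCA, the antioxidant response element core TGACNNNGC, the nuclear receptor half-site AGGTCA and the SMAD element CAGACA.
CYP1A1: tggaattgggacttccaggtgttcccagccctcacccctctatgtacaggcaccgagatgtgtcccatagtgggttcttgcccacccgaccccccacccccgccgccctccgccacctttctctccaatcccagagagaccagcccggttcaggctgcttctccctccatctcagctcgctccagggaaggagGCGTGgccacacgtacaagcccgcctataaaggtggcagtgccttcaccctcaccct
CYP2S1: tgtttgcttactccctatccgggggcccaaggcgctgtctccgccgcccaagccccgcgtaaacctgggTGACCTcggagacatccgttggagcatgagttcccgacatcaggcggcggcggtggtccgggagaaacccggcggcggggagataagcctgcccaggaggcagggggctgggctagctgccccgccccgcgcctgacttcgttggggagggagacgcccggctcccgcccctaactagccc
CYP2U1: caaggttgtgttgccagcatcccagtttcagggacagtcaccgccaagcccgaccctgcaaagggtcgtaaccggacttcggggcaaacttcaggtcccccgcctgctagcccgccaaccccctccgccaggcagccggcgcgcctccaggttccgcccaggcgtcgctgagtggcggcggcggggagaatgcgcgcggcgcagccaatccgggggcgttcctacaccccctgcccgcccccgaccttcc
GSTP1: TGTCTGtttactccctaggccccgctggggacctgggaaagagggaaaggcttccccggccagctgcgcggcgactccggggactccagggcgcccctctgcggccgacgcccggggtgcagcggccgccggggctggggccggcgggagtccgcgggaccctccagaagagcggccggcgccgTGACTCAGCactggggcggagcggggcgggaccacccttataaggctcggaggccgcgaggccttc
Distances here are to the RefSeq start. CYP1A1 held GCGTG 57 bases before its start. CYP2S1 held TGACCT, which reads AGGTCA on the other strand, 181 bases before its start. CYP2U1 matched none of the 5. GSTP1 held TGACTCAGC from 66 bases before its start, where the AP-1 and antioxidant motifs overlap, and TGTCTG, the SMAD letters on the other strand, at 250 bases. A promoter was found for 35 of the 43 members, with 39 entries. GCGTG stood in 23.1% of these entries and in 32.2% of all 35116, TGANTCA in 7.69% and 6.57%, TGACNNNGC in 20.5% and 10.9%, AGGTCA in 28.2% and 12.1%, and CAGACA in 10.3% and 13.6%. These are matches of letters and say nothing of binding.

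CYP1B1, which oxidizes estradiol and polycyclic hydrocarbons and is a known AHR target, dominated the 23 CYP members. It is ENSG00000138061, on the - strand of chromosome 2 from 38066973 to 38109902 (GRCh38). It had 10348, 9517 and 10781 scaled reads with the vector and 7537, 11073 and 10058 with the nPD-L1 label. Both the lowest and the highest library carried the nPD-L1 label, and the log2 fold change was -0.11 (SE 0.142, 95% interval -0.43 to 0.20, adjusted p = 0.774). Per kilobase of exons CYP1B1 averaged 1644 scaled reads, against 149 for the next CYP gene, CYP2S1, and it stood above 97% of all genes tested. It took 88.2%, 86.9% and 88.1% of the scaled reads of the 23 CYP genes in vector replicates 1, 2 and 3 and 83.7%, 83.7% and 84.6% with the nPD-L1 label. These shares did not overlap, an observation made after the values were seen, and 3 against 3 cannot reach an exact two-sided p below 0.1. Exons of CYP1B1 overlap those of CYP1B1-AS1 on the other strand, and the strand setting of the counting is not given in the sources used here, so reads of the overlap could not be told apart.

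CYP1A1, the classical AHR target that oxidizes polycyclic hydrocarbons, lies on the - strand of chromosome 15 from 74719542 to 74725610 (ENSG00000140465). The vector libraries gave 217, 253 and 232 scaled reads, and those with the nPD-L1 label gave 197, 678 and 356. The vector values were close together (234 ± 18.1, SD, n = 3), whereas those under the nPD-L1 label spread from below all vector values to well above them (410 ± 245, SD, n = 3). The log2 fold change was 0.63 (SE 0.356, 95% interval -0.17 to 1.43, adjusted p = 0.498), and it was 0.18 without nPD-L1 replicate 2 and 1.07 without nPD-L1 replicate 1. The third enzyme of that family, CYP1A2, a main caffeine oxidase of the adult liver, was at 0 in 4 libraries and at most 2.08 scaled reads in the others.

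CYP2S1, an extrahepatic P450 of epithelia, lies on the + strand of chromosome 19 from 41193049 to 41207539 (ENSG00000167600). Scaled reads were 387, 230 and 436 with the vector and 557, 478 and 485 with the nPD-L1 label. The lowest value with the nPD-L1 label exceeded the highest with the vector, and vector replicate 2 stood lowest. The group means were 351 ± 108 and 507 ± 43.6 (SD, n = 3). The log2 fold change was 0.58 (SE 0.21, 95% interval 0.11 to 1.04, adjusted p = 0.209). Without vector replicate 3 the log2 fold change was 0.76 with an adjusted p of 0.0450, the 1 fit with a library left out in which a member passed. Without vector replicate 2 it was 0.30, the lowest value with a library left out.

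CYP2U1, which hydroxylates long-chain fatty acids, lies on the + strand of chromosome 4 from 107931369 to 107953457 (ENSG00000155016). It had 106, 107 and 112 scaled reads with the vector and 137, 149 and 138 with the nPD-L1 label. The groups did not overlap and each was tight (109 ± 3.30 and 141 ± 6.49, SD, n = 3). Its log2 fold change was 0.38 (SE 0.158, 95% interval 0.03 to 0.73, adjusted p = 0.302), and leaving out each library in turn gave 0.34 to 0.40. Its exons also overlap antisense genes.

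The vitamin D 25-hydroxylase CYP2R1 had 303, 337 and 375 scaled reads with the vector and 278, 308 and 318 under the nPD-L1 label, which overlapped. Its log2 fold change was -0.16 (95% interval -0.46 to 0.14, adjusted p = 0.661). The other tested CYP genes were lower. CYP4F3 and CYP4F12, which hydroxylate leukotrienes and fatty acids, ranged from 62.4 to 171 and from 48.8 to 160 scaled reads, and CYP4V2, a fatty acid hydroxylase, from 74.5 to 120. CYP3A5, the CYP3A enzyme also found outside the liver, ranged from 42.9 to 89.7. CYP4F11 had 10.1, 20.3 and 4.16 against 10.1, 28.3 and 27.0 scaled reads, and the highest log2 fold change of the 23 members, 0.97 (95% interval -0.33 to 2.27, adjusted p = 0.537). In CYP4F3, CYP4F11, CYP4V2 and CYP1A1, nPD-L1 replicate 2 was the highest of the 6 libraries. Over all 23 members, nPD-L1 replicate 2 was the highest library in 9 and vector replicate 2 in 9. The CYP4F genes are close paralogs, so the split of reads among them is uncertain.

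**Figure D2:**
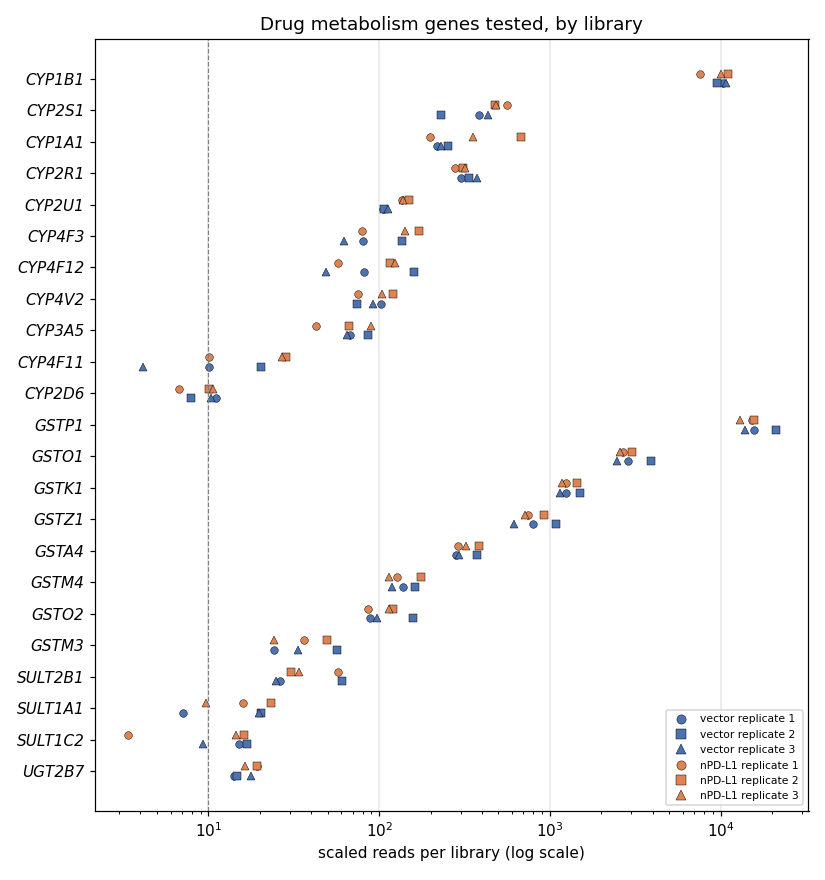
Scaled reads of the 23 tested members in each of the 6 libraries (horizontal axis, log scale); blue marks are vector and orange marks nPD-L1 libraries, the marker shape gives the replicate number, and the dashed line is the filter at 10. GSTP1 and CYP1B1 stand far above the other members, and orange and blue marks are apart in CYP2S1 and CYP2U1 alone.

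Among the phase II member families the glutathione S-transferases were the most abundant. GSTP1, the pi class enzyme of most epithelia, lies on the + strand of chromosome 11 from 67583595 to 67586656 (ENSG00000084207). Its scaled reads were 15697, 21114 and 13879 with the vector and 15224, 15617 and 13029 with the nPD-L1 label, so that vector replicate 2 was the highest and nPD-L1 replicate 3 the lowest. The log2 fold change was -0.19 (SE 0.155, 95% interval -0.53 to 0.15, adjusted p = 0.652). Per kilobase GSTP1 averaged 8247 scaled reads, above 99.5% of all genes tested. It made up 71.8% to 74.5% of the scaled reads of the 9 GST genes in each library.

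GSTO1, an omega class enzyme with thioltransferase activity, had 2880, 3913 and 2465 scaled reads with the vector and 2677, 3033 and 2572 with the nPD-L1 label. These overlapped, with a log2 fold change of -0.14 (95% interval -0.48 to 0.21, adjusted p = 0.747). GSTK1, found in mitochondria and peroxisomes, had 1249, 1509 and 1148 against 1247, 1448 and 1178. GSTZ1, which works in tyrosine breakdown as maleylacetoacetate isomerase, had 792, 1091 and 616 against 749, 929 and 712. GSTA4, which clears 4-hydroxynonenal, had 281, 376 and 294 against 290, 383 and 324. In these 3 genes replicate 2 was the highest of its group on both sides and the groups overlapped, with log2 fold changes of -0.01, -0.03 and 0.07. The widest of their intervals, for GSTZ1, ran from -0.45 to 0.39. GSTM4, GSTO2 and GSTM3 were lower, at 114 to 177, 85.7 to 158 and 24.1 to 56.5 scaled reads. Their log2 fold changes lay between -0.07 and -0.01. By level per kilobase the order was GSTP1, GSTO1, GSTK1, GSTA4, GSTZ1, GSTM4, GSTO2, GSTM3 and GSTM2, with means of 8247, 1729, 307, 149, 96.1, 24.3, 11.2, 7.85 and 0.254. The ranges over libraries did not overlap between neighbours in this order except between GSTO2 and GSTM3 (8.64 to 15.9 against 5.08 to 11.9). GSTM2 and GSTM4 share exon bases, and reads of the overlap cannot be assigned to one of them from these values.

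The sulfotransferase and glucuronosyltransferase members had few scaled reads. SULT2B1, which sulfates cholesterol and hydroxysteroids, had 26.2, 61.0 and 24.9 scaled reads with the vector and 57.1, 30.3 and 33.8 with the nPD-L1 label, and in each group 1 library stood well above the other two. SULT1A1, the main phenol sulfotransferase, had 7.07, 20.3 and 19.7 against 16.0, 23.3 and 9.65. SULT1C2 had 15.1, 16.9 and 9.35 against 3.36, 16.2 and 14.5, with nPD-L1 replicate 1 the lowest. None of the 3 separated the groups, and their intervals were wide, the widest that of SULT1C2 (-1.73 to 0.82 around a log2 fold change of -0.46, adjusted p = 0.774). SULT1A3, which sulfates dopamine, reached 9.65 scaled reads in 1 library, and SULT1A2 was at 0 in 4. Reads of the near-identical SULT1A genes may be split among them.

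UGT2B7, which glucuronidates morphine and many steroids, was the 1 tested UGT gene. Its scaled reads were 14.1, 14.7 and 17.7 with the vector and 19.3, 19.2 and 16.4 with the nPD-L1 label. The groups overlapped through vector replicate 3 and nPD-L1 replicate 3, and the log2 fold change was 0.23 (95% interval -0.53 to 0.99, adjusted p = 0.814). UGT2B15, which glucuronidates androgens, had 2.02, 12.4 and 7.27 against 1.68, 4.05 and 5.79. UGT2B11, UGT2B4, UGT2B10 and UGT1A9 had at most 2.89 scaled reads in any library. UGT1A9 shares exon bases with 8 other UGT1A genes on the same strand. Reads of the overlap cannot be assigned to one of them from these values, so the low value of UGT1A9 does not give the level of the UGT1A genes. The 6 UGT genes together had 17.2 to 28.2 scaled reads per library, and the 5 SULT genes 51.5 to 103, beside 9001 to 13230 for the CYP and 18070 to 28379 for the GST genes.

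The remaining 20 members stayed below the filter, and they include the enzymes by which adult hepatocytes are best known. CYP3A4, which handles more drugs than any other P450, was at 0 in 5 libraries and at 2.02 scaled reads in nPD-L1 replicate 2. CYP3A7, its fetal counterpart, and CYP2E1, the ethanol-inducible P450, were at 0 in 4 libraries each. CYP2C8, a retinoid and drug oxidase, reached 1.01 scaled reads. A count of 0 allows up to 3 reads, or 2.52 to 3.39 scaled reads depending on the library, and this covers counting error only. No fold is given for a gene at or under this floor. Between 32 and 37 of the 43 members had at least 1 read in a library. At the filter, the members just inside were CYP2D6 (6.72 to 11.1 scaled reads), SULT1C2 (3.36 to 16.9) and SULT1A1 (7.07 to 23.3), and those just outside were CYP2J2 (3.03 to 10.2), UGT2B15 (1.68 to 12.4) and CYP2W1 (2.52 to 9.10). For CYP2D6, at 11.1, 7.91 and 10.4 against 6.72, 10.1 and 10.6, reads may be shared with its near-identical pseudogenes.

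**Figure D3:**
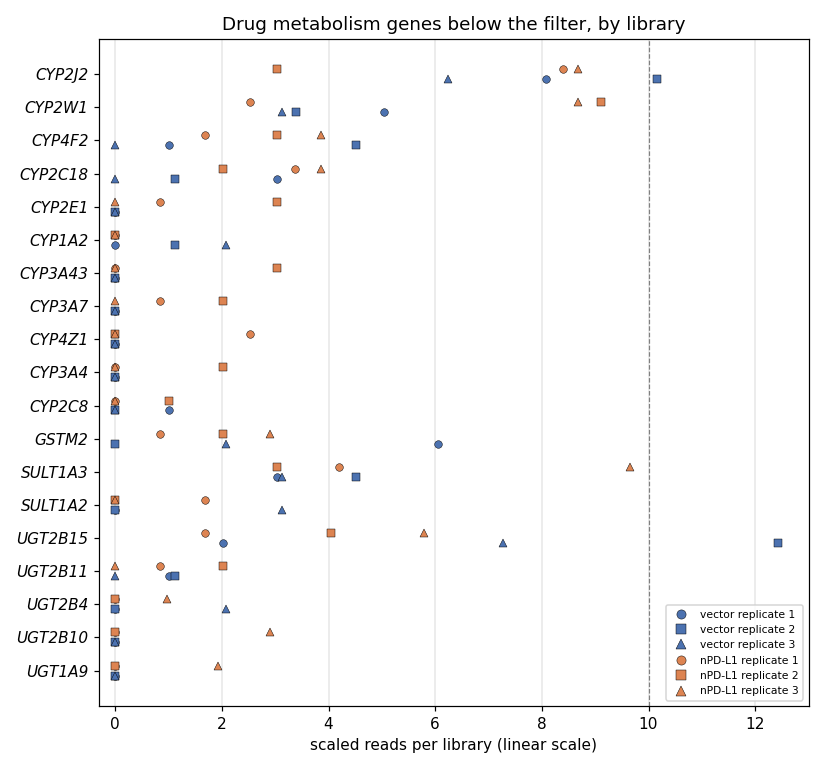
Scaled reads in each of the 6 libraries (horizontal axis, linear scale) of 19 members below the filter; colours and shapes are as in the plot of the tested members, and the dashed line is the filter at 10. CYP3A4, CYP3A43, CYP4Z1, UGT2B10 and UGT1A9 were at 0 in 5 of the 6 libraries, and 2 members, CYP2J2 and UGT2B15, passed 10 in 1 library each.

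The receptors and factors known to control these enzymes formed a list of 26 genes, of which 22 were tested and 9 passed an adjusted p of 0.05 (40.9%, beside 4.96% of all genes). The list was chosen with earlier results of these data known, so this share is a description and not a test. 7 rose under the nPD-L1 label and 2 fell, and the median log2 fold change of the 22 was 0.20, beside -0.02 for all genes. AHR, the receptor for dioxin and polycyclic hydrocarbons, had 2737, 3862 and 2669 scaled reads with the vector and 1427, 1660 and 1720 with the nPD-L1 label. All 3 libraries with the label lay below all vector libraries, and the log2 fold change was -0.93 (SE 0.147, adjusted p = 0.00348), a call lost without the intensity trend (adjusted p = 0.051). Its partner ARNT had 691, 604 and 714 against 888, 927 and 891 (log2 fold change 0.43, adjusted p = 0.0437). AHRR, the AHR repressor and itself an AHR target, had 218, 151 and 149 against 236, 296 and 257 without passing (log2 fold change 0.62, adjusted p = 0.0964). The groups did not overlap in these 3 genes, while they overlapped in CYP1A1 and CYP1B1.

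FOXA2, a pioneer factor of liver and gut enhancers, had 1856, 1752 and 1953 scaled reads with the vector and 742, 700 and 661 with the nPD-L1 label, and fell by 1.40 on the log2 scale (SE 0.0995, adjusted p = 1.23e-05). The related FOXA1 had 262, 242 and 253 against 514, 476 and 510 and rose by 0.99 (SE 0.118, adjusted p = 0.000574). These 2 paralogs therefore moved in opposite directions, each with no overlap between groups. VDR, the vitamin D receptor, had 410, 312 and 440 against 804, 846 and 750 and rose by 1.06 (adjusted p = 0.00122). The shared partner RXRA rose by 0.57 (adjusted p = 0.00942), CEBPB, a factor of the acute phase response, by 0.53 (adjusted p = 0.0328), and HNF4A, a central hepatocyte factor, by 1.91 (adjusted p = 0.0232). HNF4A was scarce, with 19.2, 11.3 and 6.24 against 51.3, 51.6 and 33.8 scaled reads. The count of 9 was 5 to 9 with a library left out, at its lowest without nPD-L1 replicate 1. FOXA2, FOXA1, VDR and AHR passed in each of those 6 fits, and ARNT, RXRA, CEBPB and HNF4A each missed the threshold in at least 2 of them and without the intensity trend.

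**Figure D4:**
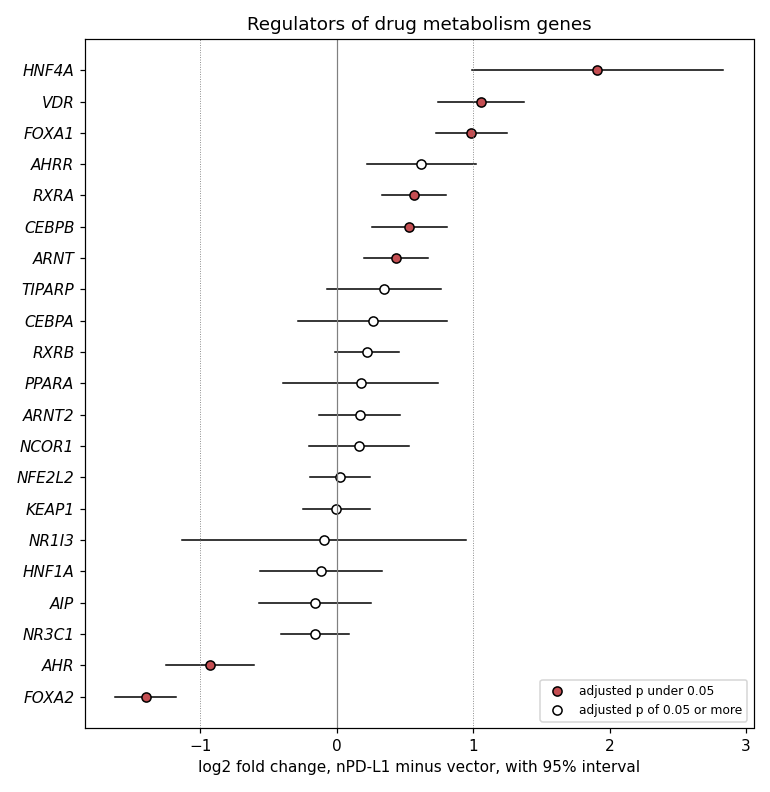
The log2 fold change (nPD-L1 minus vector, horizontal axis, on the log2(value + 1) scale) of 21 of the tested regulators with its 95% interval; filled marks had an adjusted p under 0.05. 6 filled marks lie above 0, up to 1.91 for HNF4A, and AHR (-0.93) and FOXA2 (-1.40) lie below.

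PXR (NR1I2), the main drug sensor of the CYP3A and CYP2C genes, was at 0 in 4 libraries and at most 2.02 scaled reads, and CAR (NR1I3) lay between 7.07 and 14.5. FXR (NR1H4) and SHP (NR0B2) were at 0 in 4 libraries each. NRF2 (NFE2L2), which drives the antioxidant response, and its inhibitor KEAP1 had log2 fold changes of 0.03 (95% interval -0.19 to 0.25) and -0.0027 (95% interval -0.25 to 0.24). The glucocorticoid receptor NR3C1 was among the most abundant regulators, at 4846, 3881 and 4840 against 3772, 4134 and 4177 scaled reads (log2 fold change -0.16, adjusted p = 0.60).

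Of the 23 genes that supply electrons, cofactors and donor substrates, all tested, 1 passed (4.35%, beside 4.96% of all genes). This was HMOX1, heme oxygenase, which breaks down the heme that every P450 carries. It had 592, 648 and 438 scaled reads with the vector and 973, 1102 and 986 with the nPD-L1 label and rose by 0.88 (SE 0.147, adjusted p = 0.00486), a call lost without the intensity trend (adjusted p = 0.0529) and by edgeR on 4 libraries (adjusted p = 0.0923). UGDH, which makes UDP-glucuronic acid, was among the most abundant, with a log2 fold change of -0.0049 (95% interval -0.28 to 0.27).

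Among 34 tested phase I enzymes outside the member families, 2 passed (5.88%, close to the 4.96% of all genes). CYP24A1, which inactivates vitamin D and is a target of VDR, had 4401, 2777 and 5165 against 8150, 6447 and 7575 scaled reads and rose by 0.89 (SE 0.198, adjusted p = 0.0268), a call lost without vector replicate 1, nPD-L1 replicate 1 or nPD-L1 replicate 3 (adjusted p = 0.074, 0.157 and 0.135). The call of CYP24A1 was also lost in limma with no filter and without the intensity trend (adjusted p = 0.131 and 0.163). On 4 libraries it was lost by edgeR and by limma (adjusted p = 0.130 and 0.0697). CYP26B1, which breaks down retinoic acid, had 118, 106 and 118 against 266, 212 and 221 and rose by 1.02 (SE 0.158, adjusted p = 0.00316), a call lost by edgeR on 4 libraries (adjusted p = 0.0504). The aldehyde dehydrogenases ALDH3A1 and ALDH1A1 had the most scaled reads of this list, at log2 fold changes of 0.08 (95% interval -0.42 to 0.58) and 0.05 (95% interval -0.33 to 0.43). Per kilobase of exons they averaged 13171 and 10338 scaled reads, above the 1644 of CYP1B1. None of the 10 tested genes of other phase II enzymes passed (0). The most abundant were MGST1, a membrane glutathione transferase (log2 fold change -0.15, adjusted p = 0.734), and NNMT, which methylates nicotinamide (log2 fold change -0.15, adjusted p = 0.869). The unadjusted limma threshold was passed by 0 of these 10 and by 14.2% of all genes. edgeR and DESeq2 on 4 libraries called 0 of these 10, where they called 283 and 418 of all 15076 genes.

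None of the 18 tested drug transporters passed (0), beside 4.96% of all genes. By an unadjusted p under 0.05 in limma, 3 did (ABCC1, SLC51A and SLCO2B1), all with higher values under the nPD-L1 label. That threshold was passed by 14.2% of all genes, 9.53% with higher values. edgeR and DESeq2 on 4 libraries called 0 of the transporters, where they called 283 and 418 of all 15076 genes. ABCC1, the export pump MRP1 for glutathione conjugates, was nearest, with 2700, 2183 and 2764 scaled reads against 3560, 3320 and 3265 (log2 fold change 0.41, adjusted p = 0.0688). Its groups did not overlap, and a transporter passed without vector replicate 2 (2 transporters) and without vector replicate 3 (1). SLC51A and SLCO2B1 each had a log2 fold change of 0.93 (adjusted p = 0.154 and 0.232). The pumps ABCC2 and ABCC3 were the most abundant, at log2 fold changes of 0.05 (95% interval -0.26 to 0.37) and 0.14 (95% interval -0.10 to 0.38).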

How the data were processed

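Total RNA of 6 Hep3B libraries, 3 per group, was sequenced after preparation with a NEBNext Ultra kit. The submitters' processing notes name CASAVA, HISAT2 2.0.5 and hg38. The counter, the annotation and the strand setting are not given in the sources used here, and all 43 members had the coordinates and exon lengths of GENCODE 29. The authors' deposited values are a signal, the reads on each gene divided by a library size factor. The authors' deposited group means, log2 fold change, p-value and adjusted p-value columns describe their own comparison and were not used.

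All values above 0 (100%) were whole multiples of the value of 1 read within 0.05, and whole reads were accepted in 4 libraries (17427519 to 22253295 reads on genes), which sets how well scarce members were measured. The depth of vector replicate 1 and nPD-L1 replicate 2 was not recovered, because there 1 read is worth nearly 1. log2(value + 1) was fitted with limma 3.58.1 (R 4.3.3; trend and robust moderation) on the 15076 genes reaching a value of 10 in 3 or more libraries, with Benjamini-Hochberg adjustment over all of them. This scale understates changes of scarce genes. A count test had been planned as the alternative: edgeR 4.0.16 and DESeq2 1.42.0 were run on the reads of the 4 libraries, where edgeR called 283 genes, and limma on the same 4 was added after seeing the data. The other alternatives were scalings, filters, pseudocounts of 0.1 and 10, moderation, protein-coding genes only, the replicate number as a block, libraries left out and thresholds. Scripts were tested on simulated data.

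Genes named were members with an unadjusted p under 0.05, the 5 most abundant of each family, the 3 on either side of the filter, CD274 and, per list, the called and the 2 most abundant genes; further members, AHRR, the other regulators without a call, SLC51A and SLCO2B1 were added for completeness. A few genes the rule would name are left out of the text and figures. The members and lists were chosen with earlier results of these data known. Of 81 GENCODE 29 names that match the pattern, 43 were analysed here. Promoters come from RefSeq, by symbol, and were counted per entry; with 1 entry per symbol AGGTCA stood in 31.4% of members and 12.1% of all.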

Additional observations from a re-analysis of the deposited data

How the results depend on the processing

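Depth limited the SULT, UGT and CYP2D6 values, where few reads were counted. The member count of 0 was 1 with the replicate block (CYP2S1, adjusted p = 0.0268, likewise 1 among CYP genes), 2 by an unadjusted p under 0.05 (2 CYP genes), and 0 to 1 with a library left out (0 to 1 among CYP genes). It was 0 under every other alternative. The labels do not say whether libraries with the same replicate number were handled together, so a pairing is not known. Deviations of same-numbered libraries correlated at -0.013, 0.23 and 0.13, with 4 of 6 libraries correlating best with their own number. The replicate block gave 1185 calls over all genes in place of 748 and 1 among transporters. Among the single genes followed under each alternative, it changed the call of CYP2S1 alone.

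Over all genes, 427 to 1037 were called with a library left out (lowest without nPD-L1 replicate 3, highest without vector replicate 2), 2146 by an unadjusted p under 0.05, 374 with a 2-fold change as well, 283 by edgeR, 418 by DESeq2 and 307 by limma on the same 4 libraries, which have fewer samples. The regulator count of 9 was 4 without the intensity trend, which lost AHR (adjusted p = 0.051), 4 with a 2-fold change, 5 by edgeR, 5 by DESeq2, 5 by limma on 4 libraries and 5 to 9 with a library left out. The cofactor count of 1 was 0 without trend, 2 by unadjusted p, 0 with a 2-fold change, 0 by edgeR and 0 by limma on 4 libraries. For other phase I enzymes the count of 2 was 1 with no filter, 1 without trend, 4 by unadjusted p, 1 with a 2-fold change, 0 by edgeR, 1 by limma on 4 libraries and 1 to 2 with a library left out. For transporters the count of 0 was 1 with no filter, 1 without trend, 3 by unadjusted p and 0 to 2 with a library left out. CD274, at -0.76, passed by an unadjusted p only. The causes were not tested.

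The log2 fold change of 21 genes, 15 of them members and 0 of them called, took the other sign under a setting. It became 0.0020 for GSTK1 and 0.0052 for UGDH with TMM factors. On 4 libraries, edgeR gave -0.19 for CYP4F12, -0.12 for GSTA4, -0.63 for SULT1A1, -0.14 for ALDH3A1 and -0.12 for ALDH1A1, DESeq2 gave -0.20 for CYP4F12, -0.13 for GSTA4, -0.64 for SULT1A1, -0.15 for ALDH3A1 and -0.12 for ALDH1A1, and limma gave -0.071 for CYP4F12, -0.12 for GSTA4, -0.65 for SULT1A1, -0.059 for ALDH3A1 and -0.092 for ALDH1A1. With each library left out the ranges were -0.23 to 0.049 for CYP1B1, -0.28 to 0.56 for CYP4F12, -0.010 to 0.33 for CYP4V2, -0.42 to 0.10 for CYP3A5, -0.23 to 0.085 for CYP2D6, -0.29 to 0.048 for GSTO1, -0.094 to 0.10 for GSTK1, -0.23 to 0.18 for GSTZ1, -0.036 to 0.20 for GSTA4, -0.20 to 0.12 for GSTM4, -0.22 to 0.19 for GSTO2, -0.30 to 0.30 for GSTM3, -0.095 to 0.58 for SULT2B1, -0.36 to 0.41 for SULT1A1, -0.81 to 0.18 for SULT1C2, -0.047 to 0.20 for ABCC2, -0.090 to 0.10 for UGDH, -0.16 to 0.35 for ALDH3A1, -0.076 to 0.25 for ALDH1A1, -0.26 to 0.052 for MGST1 and -0.53 to 0.19 for NNMT.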
